A study of Homo sapiens with 3 samples.

Results

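The genes described are those of the mitochondrial ribosomal proteins, the protein parts of the ribosome that works inside mitochondria. They were taken from the array's annotation as the gene symbols made of MRPL or MRPS and digits, with a final A or B allowed and pseudogenes left out, which gave 73 genes among 14884 named genes. Of these, 48 carry an MRPL symbol and 25 an MRPS symbol. The other matching symbols in the RefSeq gene table, MRPL12, MRPS6 and MRPS24, were not analysed here. Each gene is given by its brightest probe set, and 4 genes had more than 1.

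Levels were measured with 1-colour Affymetrix whole-transcript arrays in A549 cells, a long-used line grown from a human lung cancer. The groups were cells given a control siRNA (siNC), cells given siTAZ to deplete TAZ, and cells given siYAP to deplete YAP, each with a lipid reagent under standard growth conditions, and RNA was taken 48 h later. Each group had 1 array, so no value carries an error, no test was possible, and all differences describe these 3 cultures. TAZ, the product of WWTR1, and YAP, the product of YAP1, are related co-activators at the end of the Hippo pathway that act mainly through TEAD factors. Levels are RMA values read as log2. A difference is one log2 level minus another, and folds are differences taken back to the linear scale. Both knockdowns are compared with the same control array, so a low or high control value moves both in the same direction.

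The mitochondrial ribosome translates the few messenger RNAs of the mitochondrial genome, all of which encode membrane subunits of the respiratory chain and of ATP synthase. Its RNAs are made in the mitochondrion, whereas every protein of its small and large subunits is encoded in the nucleus, made in the cytosol and imported. Some of these proteins descend from bacterial ribosomal proteins and others are specific to mitochondria. In the unified nomenclature MRPS30 and MRPS18A belong to the large subunit in spite of their symbols, so the 73 genes comprise 50 of the large and 23 of the small subunit.

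The promoters of 4 of these genes are shown because the genes mark the extremes of the data described here. MRPL30 had the highest difference after TAZ knockdown, and MRPS14 the highest of a small subunit gene after YAP knockdown. MRPL49 differed most between the knockdowns, and MRPL45 was the lowest after YAP knockdown. Each sequence is the 250 bases before the RefSeq start in GRCh38.p14, read 5′ to 3′ on the gene's strand. MRPL30 lies at chr2:99180934-99181183 (plus strand), MRPS14 at chr1:175023426-175023675 (minus strand), MRPL49 at chr11:65121933-65122182 (plus strand) and MRPL45 at chr17:38296918-38297167 (plus strand). Capitals mark matches to GCGCANGCG (NRF1), CCGGAAG (GABP and other ETS factors), AANATGGC (YY1) or GGAATG (TEAD) on either strand; these motifs were searched because the first group of factors is known for nuclear genes of mitochondria and TEAD for YAP and TAZ.
MRPL30: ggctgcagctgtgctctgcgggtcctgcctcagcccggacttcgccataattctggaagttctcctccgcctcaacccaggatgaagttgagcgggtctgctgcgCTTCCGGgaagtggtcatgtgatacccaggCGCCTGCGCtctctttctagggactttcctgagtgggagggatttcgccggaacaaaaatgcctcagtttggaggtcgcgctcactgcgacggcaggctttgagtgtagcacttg
MRPS14: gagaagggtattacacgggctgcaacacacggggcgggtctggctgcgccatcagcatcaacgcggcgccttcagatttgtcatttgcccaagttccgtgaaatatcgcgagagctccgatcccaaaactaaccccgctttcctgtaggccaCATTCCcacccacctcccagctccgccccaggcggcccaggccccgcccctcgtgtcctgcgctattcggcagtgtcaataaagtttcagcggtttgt
MRPL49: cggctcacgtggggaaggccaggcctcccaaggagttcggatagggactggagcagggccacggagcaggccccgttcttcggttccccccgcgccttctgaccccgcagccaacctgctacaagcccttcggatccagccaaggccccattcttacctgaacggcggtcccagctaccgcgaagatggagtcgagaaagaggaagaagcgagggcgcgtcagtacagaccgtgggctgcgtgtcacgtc
MRPL45: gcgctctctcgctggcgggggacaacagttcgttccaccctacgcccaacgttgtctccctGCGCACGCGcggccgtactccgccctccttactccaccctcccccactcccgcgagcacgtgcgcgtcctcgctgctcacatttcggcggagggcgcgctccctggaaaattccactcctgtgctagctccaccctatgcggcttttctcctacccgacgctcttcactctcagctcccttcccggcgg

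MRPL30 held an ETS and an NRF1 match before its start, MRPL45 an NRF1 match and MRPS14 a TEAD match, while MRPL49 held none of the 4 motifs there. Both MRPL45 and MRPS14 also held a YY1 match just after their starts, beyond the printed stretch. Over windows of 300 bases (250 before and 50 after the start), 65 of the 73 genes had an entry in the RefSeq promoter table. Of these, 28 (43.1%) held the ETS motif, against 10.7% of 27326 promoters and 15.0% of the 10758 promoters of named genes. The YY1 motif was found in 24 (36.9%), against 6.82% and 8.26%, and in 21 of them it lay after the start. The NRF1 motif was found in 12 (18.5%), against 8.04% and 11.3%. The TEAD motif was found in 10 (15.4%), against 14.05% and 11.7%. Matches of different motifs shared bases in 0 of the 65 promoters, although the letters of the ETS and YY1 motifs could overlap. A match is a match of letters only. At least 1 of the ETS, YY1 and NRF1 motifs was present in 48 of the 65 promoters.

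The transcripts targeted by the siRNAs were checked first, and each was lowest where it was targeted. YAP1 stood at 8.45, 8.24 and 6.87 in the siNC, siTAZ and siYAP arrays. WWTR1 stood at 6.50, 5.81 and 6.50. Of 8 epithelial markers 4 were measured, all above the median level of the probe sets. In the siNC, siTAZ and siYAP arrays EPCAM was at 8.23, 8.13 and 8.19 and KRT18 at 11.6, 11.4 and 11.6, so both were lowest after TAZ knockdown. KRT8 was less bright at 6.504, 6.504 and 6.55, and KRT19 was at 6.44 on each array. Of markers for other cells, CD68 was at 8.43, 9.001 and 9.02 and the fibroblast gene LUM at 7.45, 8.14 and 8.10, both higher in the knockdown arrays. THY1, on the same fibroblast list as LUM, was lower in both, at 5.22, 5.06 and 5.06. The leukocyte list had 2 of 5 genes measured and a log2 summed level of 8.52, 9.06 and 9.08 in the siNC, siTAZ and siYAP arrays. That sum was led by CD68, and CD14, the other measured gene, was dim at 4.49, 4.49 and 4.55. The fibroblast list had 3 of 7 measured and 7.76, 8.32 and 8.29, a sum led by LUM, and the endothelial list 3 of 4 and 5.60, 5.68 and 5.65. DCN, a defining fibroblast gene, was very dim at 2.38 on each array, and the defining leukocyte gene PTPRC was not analysed here. Whether these markers have a part in the differences below was not tested.

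All 73 genes lay at or above 4.27, the median level over all probe sets, and 67 at or above the 75th percentile of 5.81. Their levels ran from 4.96 to 10.6 in the control array and from 4.87 to 10.7 in each knockdown array. The median was 7.43, 7.46 and 7.49. The brightest probe sets in the control array were those of MRPS21 (10.6), MRPS15 (10.02), MRPS35 (9.77) and MRPL45 (9.76), and the dimmest those of MRPL52 (4.96), MRPL23 (5.01), MRPL22 (5.42) and MRPL32 (5.50). Probe sets differ in their probes, so these signals do not rank the genes by abundance.

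Many deposited values were identical to the last digit between arrays. For 17 of the 73 genes (23.3%) all 3 arrays held the same value, against 47.1% of all named genes and 28.4% of those at or above the 75th percentile. MRPS15, MRPS7, MRPS10 and MRPL46, with 10.02, 9.48, 9.21 and 8.33 on each array, are bright examples. A further 15 genes had the same value in both knockdown arrays and another in the control, which is 20.5% beside 12.2% of named genes and 13.8% of the bright ones. In 7 genes (9.59%) siNC and siTAZ were the same, beside 7.74% and 7.46%, and in 5 (6.85%) siNC and siYAP, beside 9.82% and 10.5%. The other 29 (39.7%) had 3 different values, beside 23.2% and 39.9%. RMA summarises a probe set by median polish, and whether that step made the identical values was not tested. An identical value is therefore given as such and not as an absence of change.

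**Figure D1:**
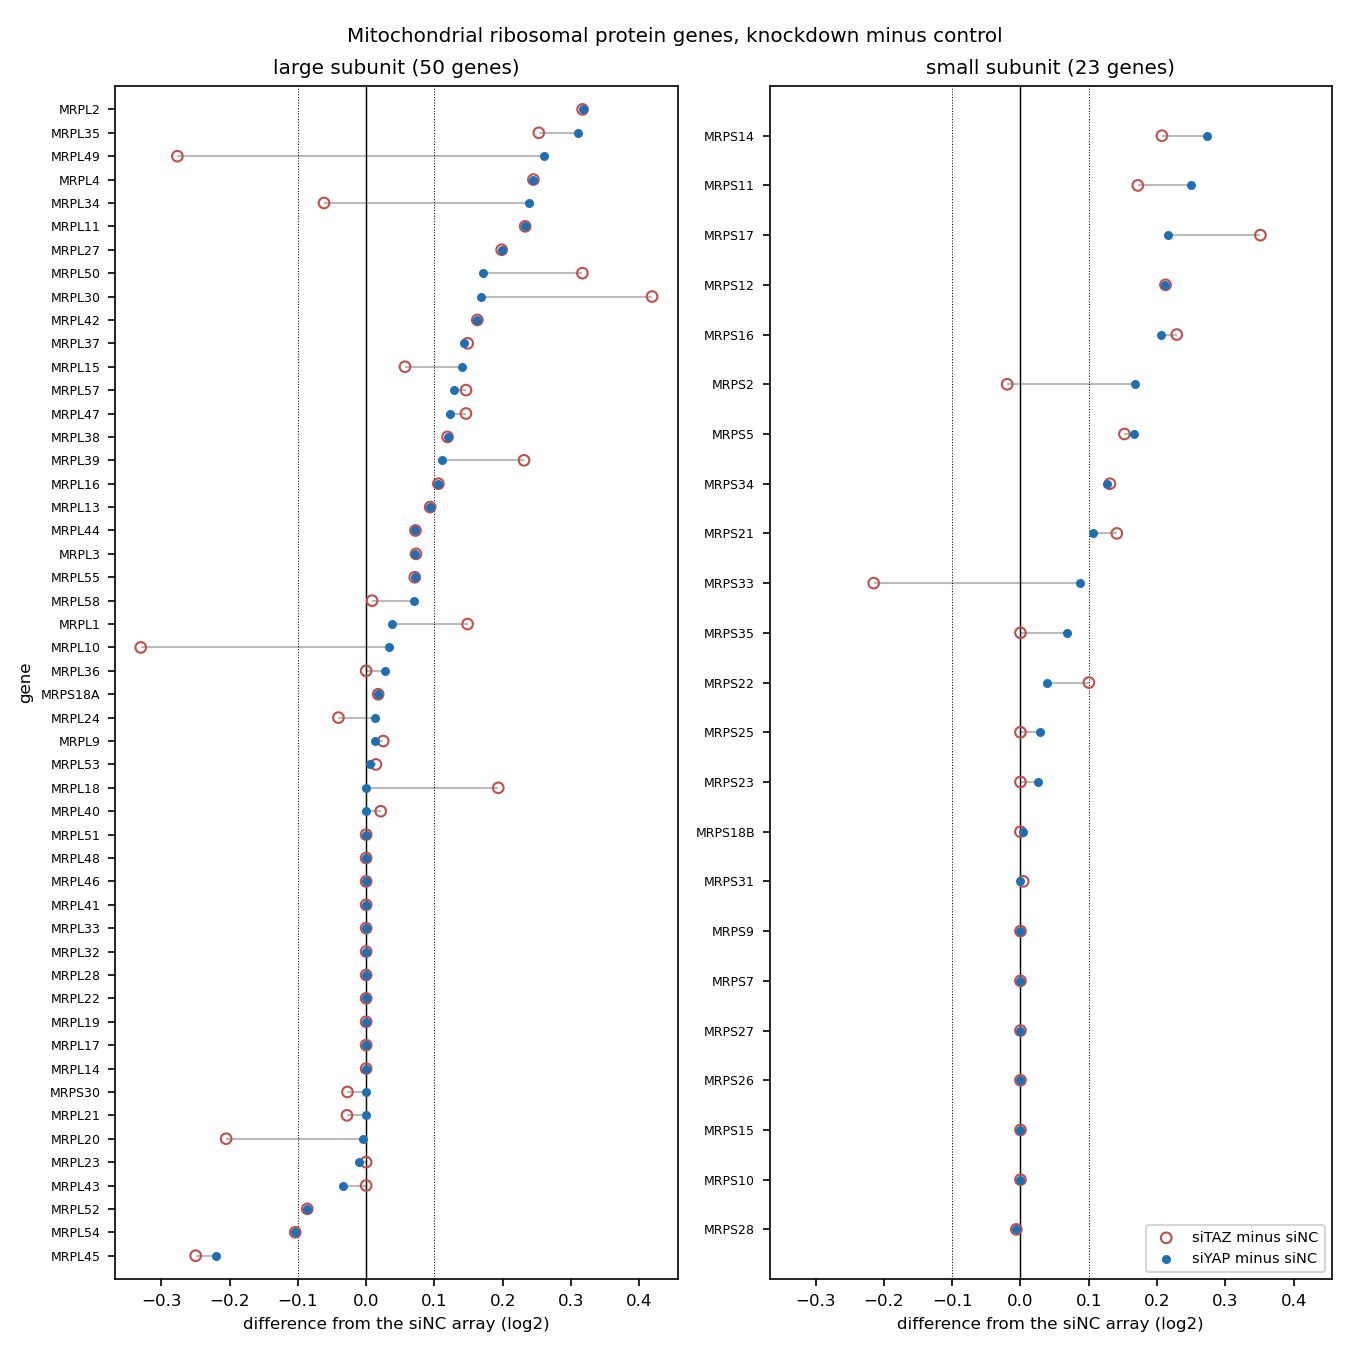
Difference from the control array (log2) for each of the 73 genes, with siTAZ minus siNC as open circles and siYAP minus siNC as filled points, by subunit and in order of the siYAP difference; dotted lines mark 0.1 in either direction. Differences after TAZ knockdown run from -0.33 (MRPL10) to 0.42 (MRPL30) and after YAP knockdown from -0.22 (MRPL45) to 0.32 (MRPL2).

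The first comparison asked how these genes stood after TAZ knockdown. In the siTAZ array 36 of the 73 genes were higher than in the control, 13 were lower and 24 had the identical value. Among all named genes 25.1% were higher by any amount and 20.1% lower. This split depended on the scaling, since a rescaling gives identical values a small difference. After a loess trend was subtracted, 47.9% of the 73 genes and 55.8% of named genes were higher, and after a repeated quantile normalization 53.4% and 52.3%. The differences were small. None of the 73 genes reached 1.5-fold in either direction, where 0.638% of named genes were at least that much higher and 0.847% lower. At 1.2-fold, 4 genes were higher and 2 lower, which is 5.48% and 2.74% of the 73 beside 4.55% and 4.19% of named genes. At this fold 7.74% of named genes at or above the 75th percentile of level were higher and 6.43% lower. Of the 67 genes described here that are as bright, 5.97% were higher and 2.99% lower. Both shares were smaller than those of the bright named genes. At a step of 0.1 on the log2 scale (1.07-fold), 25 genes (34.2%) were higher, against 13.8% of named genes, and 6 (8.22%) were lower, against 11%. With loess and with the repeated quantile normalization 23 genes were higher by this step, against 13.02% and 13.3% of named genes. Among named genes at or above the 75th percentile of level, 22.4% were higher by this step and 14.5% lower; of the 67 genes described here that are as bright, 25 (37.3%) were higher and 5 lower. The median difference was 0 over the 73 genes and 0 over all named genes. By level, 6 of 18 genes between 6 and 7 were higher by any amount and 5 lower, beside 34.4% and 19.9% of named genes in that band. Between 7 and 8, 13 of 23 were higher (43.2% of named genes), and above 8, 15 of 24 (46.4%).

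The highest gene after TAZ knockdown was MRPL30, a large subunit protein with a bacterial homologue. Its level was 8.12 in the control, 8.54 after TAZ knockdown and 8.29 after YAP knockdown, a 1.34-fold difference after TAZ knockdown, with siYAP between the others. MRPS17, a protein of the small subunit body, was at 7.69, 8.04 and 7.90 in the same order of arrays, 1.28-fold higher after TAZ knockdown. Like MRPL30, it was highest in the siTAZ array. MRPL2, which lies next to the peptidyl transferase centre, was at 7.51 in the control and 7.83 in both knockdown arrays, 1.25-fold higher. MRPL50, found only in mitochondrial ribosomes, was at 7.74, 8.05 and 7.91, also 1.25-fold higher after TAZ knockdown. These were the 4 genes past 1.2-fold. The next were MRPL35 (a difference of 0.25) and MRPL4 (0.24), whose protein lines part of the peptide tunnel.

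The lowest gene after TAZ knockdown was MRPL10, which forms the base of the stalk that recruits elongation factors. Its level was 6.17 in the control and 5.84 after TAZ knockdown, but 6.20 after YAP knockdown, which made it 1.26-fold lower after TAZ knockdown, so only the siTAZ array stood low. MRPL49, a mitochondria-specific protein of the large subunit, was at 7.46, 7.19 and 7.72, 1.21-fold lower after TAZ knockdown. MRPL45, which sits at the tunnel exit and helps to attach the ribosome to the inner membrane, was at 9.76, 9.51 and 9.54, a difference of -0.25. It was lower in both knockdown arrays, as was the annotated pseudogene MRPL45P2 (6.08, 5.86 and 5.82), and whether the probe sets of the gene and the pseudogene share signal was not tested. MRPS33, MRPL20 and MRPL54 followed at -0.21, -0.20 and -0.10. MRPL20, needed early in large subunit assembly in bacteria, was at 6.83, 6.63 and 6.83, so again only the siTAZ array was low.

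The second comparison asked the same of YAP knockdown. In the siYAP array 44 of the 73 genes were higher than in the control, 7 lower and 22 identical, while 22.9% of named genes were higher by any amount and 20.2% lower. With loess 56.2% of the 73 genes and 54.8% of named genes were higher, and with the repeated quantile normalization 61.6% and 48.8%. None of the 73 reached 1.5-fold, where 0.41% of named genes were higher and 0.383% lower. At 1.2-fold, 3 genes (4.11%) were higher and 0 lower, beside 3.41% and 2.84% of named genes. Of named genes at or above the 75th percentile of level, 5.30% were higher by this fold and 3.99% lower. Of the 67 genes described here that are as bright, 4.48% were higher and 0 lower, both smaller shares. At a step of 0.1 on the log2 scale, 26 genes (35.6%) were higher and 2 (2.74%) lower, against 11.4% and 9.65% of named genes. With either rescaling 23 genes were higher by this step, against 10.8% of named genes with loess and 11.1% with the quantile normalization. Among named genes at or above the 75th percentile these shares were 18.1% and 12.1%, and among the 67 genes described here that are as bright 38.8% and 1.49%. The median difference was 0.028, against 0 over all named genes. By level and with the deposited scaling, the genes higher by any amount were 11 of 18 between 6 and 7 (31.1% of named genes), 15 of 23 between 7 and 8 (40.2%) and 17 of 24 above 8 (41.01%). Below 6, 1 of 8 was higher and 4 were lower, beside 15.1% and 16.4% of named genes between 4.27 and 6. The 2 genes lower by the step of 0.1 were MRPL45 and MRPL54.

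MRPL2 led the siYAP comparison at 1.25-fold, with the same value as in the siTAZ array. MRPL35, with a bacterial homologue, was at 7.43, 7.69 and 7.75 in the siNC, siTAZ and siYAP arrays, 1.24-fold higher after YAP knockdown. MRPS14, a protein of the small subunit head, was at 6.42, 6.62 and 6.69, 1.21-fold higher. For both genes each knockdown array lay above the control, and the siYAP array held the highest level. MRPL49 (0.26), MRPS11 (0.25) and MRPL4 (0.24) lay just under 1.2-fold, which is 0.26 on the log2 scale. At the other end MRPL45 was at -0.22, MRPL54 at -0.10, MRPL52 at -0.086 and MRPL43 at -0.034, while MRPL23 (-0.010) and MRPS28 (-0.0060) were close to the control.

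**Figure D2:**
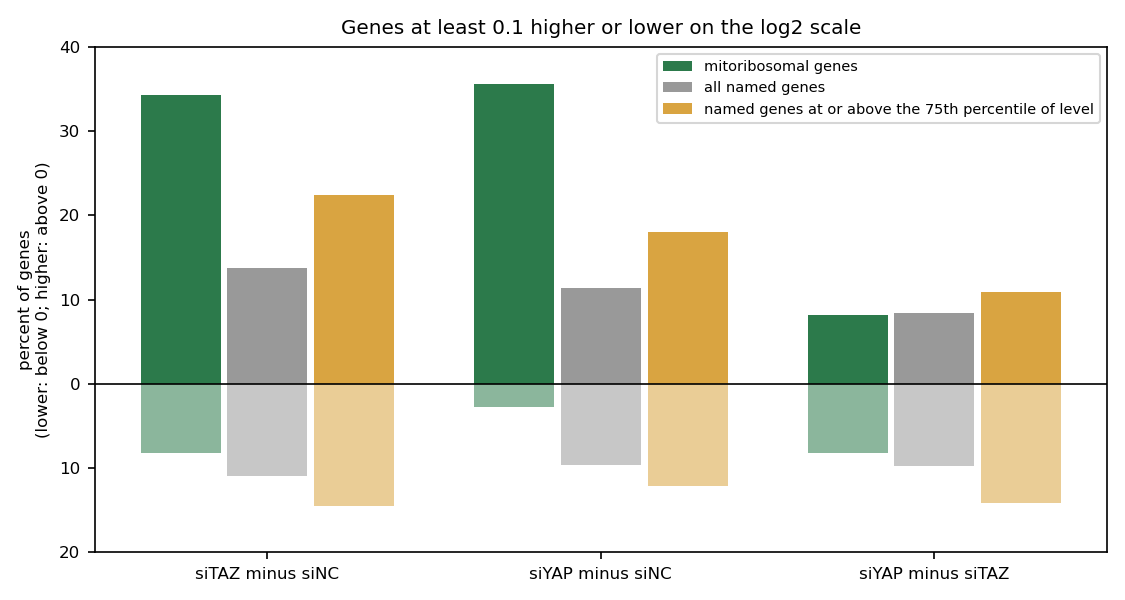
Percent of genes at least 0.1 higher (bars above 0) or lower (bars below 0) on the log2 scale in each comparison, for the 73 mitoribosomal genes, all 14884 named genes and the 6394 named genes at or above the 75th percentile of level. The mitoribosomal bars stand at 34.2% and 35.6% higher against the control, beside 22.4% and 18.1% for the bright named genes, and at 8.22% in both directions between the knockdowns.

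The third comparison set the knockdown arrays against each other and subtracts no control value. Whether the control array entered these levels through the RMA steps was not tested. Here 21 genes were higher in the siYAP array, 20 lower and 32 identical, while 17.9% of named genes were higher by any amount and 22.8% lower. With loess 65.8% of the 73 genes and 51.9% of named genes were higher, and with the repeated quantile normalization 46.6% and 36.2%. At a step of 0.1, 6 genes were higher and 6 lower (8.22% each), against 8.37% and 9.78% of named genes, so the shares were near the background. At 1.2-fold 4 genes (5.48%) were higher and 0 lower, against 2.8% and 2.09%. Of named genes at or above the 75th percentile of level, 4.10% were higher by this fold and 2.60% lower. Of the 67 genes described here that are as bright, 5.97% were higher and 0 lower. None reached 1.5-fold, where the background was 0.477% and 0.215%. The median difference was 0 here and over all named genes.

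The 4 genes past 1.2-fold were all higher in the siYAP array. MRPL49 showed the widest gap, 1.45-fold, because its siTAZ value lay below and its siYAP value above the control. MRPL10 was 1.29-fold higher in the siYAP array, which lay close to the control. MRPS33, a mitochondria-specific small subunit protein, was at 6.10, 5.89 and 6.19 in the siNC, siTAZ and siYAP arrays, a gap of 1.23-fold. MRPL34, a short basic protein with a bacterial homologue, was at 9.13, 9.07 and 9.37, also 1.23-fold. For MRPL34 the siYAP array stood high, whereas for MRPL10 and MRPS33 the siTAZ array stood low. The most negative differences were those of MRPL30 (-0.25), MRPL18 (-0.19), MRPL50 (-0.15) and MRPS17 (-0.14), all higher in the siTAZ array. MRPL18, a protein of the central protuberance, was at 8.82 in both the siNC and the siYAP array and at 9.01 in the siTAZ array.

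**Figure D3:**
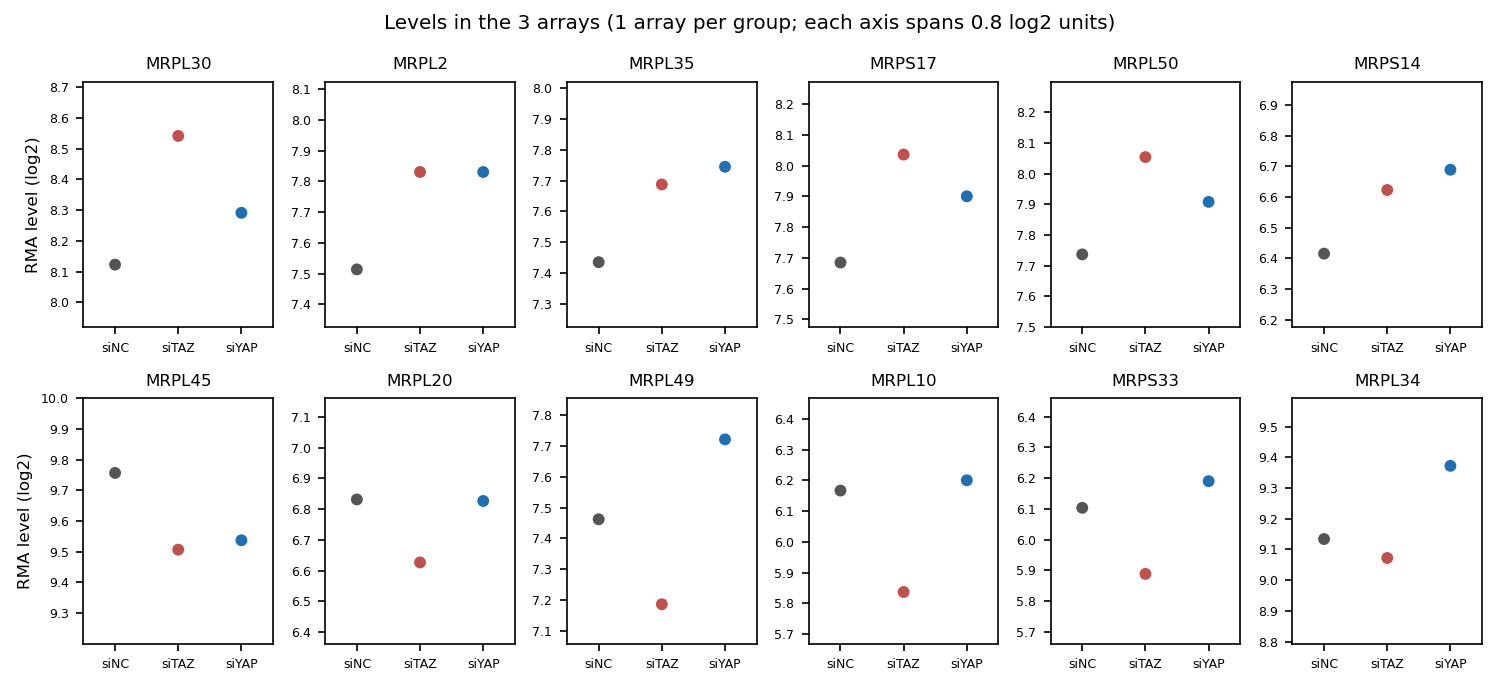
RMA levels (log2) of 12 genes in the siNC, siTAZ and siYAP arrays, 1 point per array, each panel spanning the same 0.8 log2 units. The upper row shows genes with both knockdown arrays above the control, such as MRPL30 (8.12, 8.54 and 8.29); the lower row shows genes with at least 1 knockdown array below the control, such as MRPL49 (7.46, 7.19 and 7.72).

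Differences were found in both subunits. Of all named genes 13.8% were at least 0.1 higher and 11% lower after TAZ knockdown, and 11.4% and 9.65% after YAP knockdown; of the bright ones 22.4% and 18.1% were higher. Of the 50 large subunit genes, 16 (32%) were at least 0.1 higher and 5 (10%) lower after TAZ knockdown, and 17 (34%) and 2 (4%) after YAP knockdown. Of the 23 small subunit genes, 9 (39.1%) were higher in each comparison, with 1 lower after TAZ knockdown and 0 after YAP knockdown. Origin was taken from the unified names, by which MRPS18A (mL66) and MRPS18B (mS40) count as mitochondria-specific. The 13 small subunit proteins classed in this way as having bacterial homologues had median differences of 0.14 and 0.17. Of them 7 (53.8%) and 8 (61.5%) were at least 0.1 higher and 0 lower. Among them, MRPS12, which sits at the decoding centre, was 0.21 higher in both arrays, MRPS16 was 0.23 and 0.21 higher, and MRPS5, which lies at the entry of the messenger RNA, 0.15 and 0.17. MRPS2 was at -0.019 after TAZ and 0.17 after YAP knockdown. The 10 mitochondria-specific small subunit genes had medians of 0 and 0.027, and MRPS34 (0.13 in both) was the only one at least 0.1 higher after YAP knockdown. They include MRPS18B, at 0 and 0.0042. Both values lie below the medians of the 13, so counting MRPS18B with those genes would lower both medians. In each comparison 4 of the 13 were identical to the control. The size of that shift was not calculated. In the large subunit the medians were 0.025 and 0.034 for 29 proteins with bacterial homologues and 0.0087 and 0.0060 for 21 mitochondria-specific ones. The difference between these classes was not tested, as there was 1 array per group.

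Genes of 1 place in the large subunit went different ways. The factor-binding stalk had 4 measured genes: MRPL11 was 0.23 higher in both knockdown arrays, MRPL10 was low after TAZ knockdown alone, MRPL54 was at -0.10 in both and MRPL53 at 0.014 and 0.0060. Around the tunnel exit, 8 genes had medians of 0 and 0.0066. MRPL45 was low, MRPL39 was 0.23 and 0.11 higher and MRPL47 0.15 and 0.12 higher, while MRPL17 and MRPL22 were identical in all arrays. The central protuberance, the crown of the large subunit, had 9 genes with medians of 0.021 and 0. MRPL27 (0.20 in both) and MRPL38 (0.12 in both) were higher, MRPL52 was at -0.086 in both, and MRPL46 and MRPL48 were identical. MRPL58, a peptidyl-tRNA hydrolase that became part of the ribosome, was at 0.0087 and 0.070.

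The MRPS18 genes encode related proteins that sit in different subunits. MRPS18A, in the large subunit, was at 6.94 in the control and 6.96 in both knockdown arrays. MRPS18B, in the small subunit, was at 7.46 in the control with a difference of 0 after TAZ and 0.0042 after YAP knockdown. Its 7 probe sets held identical levels on every array, so they cannot be counted as separate measurements. Whether they share probes was not tested. The other genes with several probe sets had probe sets that differed in level. The 2 probe sets of MRPS16 gave 0.23 and 0.30 after TAZ knockdown and 0.21 and 0.18 after YAP knockdown. Those of MRPS2 gave -0.019 and 0 after TAZ and 0.17 and 0 after YAP knockdown, so the difference of this gene rests on its brighter probe set. Those of MRPL44 gave 0.072 and 0 in both, and the second was very dim at 1.84 on each array.

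Some of the genes share a start region with a neighbour. Among the 65 genes with a RefSeq promoter, 20 had a gene on the opposite strand pointing away from a start at most 1000 bases off, and 10 of these neighbours were measured. MRPL46 and MRPS11 form such a pair with each other, with 320 bases between their starts. MRPL46 was identical in all arrays, while MRPS11 was at 8.25, 8.42 and 8.50 in the siNC, siTAZ and siYAP arrays. MRPL49 has FAU, a precursor of a cytosolic ribosomal protein, 49 bases away. FAU was 0.065 higher in both knockdown arrays, unlike MRPL49. Of the 10 neighbours, 5 were higher, 1 lower and 4 identical in each comparison with the control. Among named genes 25.1% and 22.9% were higher after TAZ and YAP knockdown, and 20.1% and 20.2% lower. None of the 10 reached 1.2-fold, beside 4.55% and 3.41% of named genes higher and 4.19% and 2.84% lower. MRPS11 and MRPL46 are counted among the 10, each as the neighbour of the other. The median differences were also taken by motif: with the ETS motif 0.012 and 0.022 after TAZ and YAP knockdown, without it 0 and 0.028. With the YY1 motif the medians were 0 and 0.0021, without it 0.0087 and 0.070. With the NRF1 motif they were 0 and 0.014, without it 0.0087 and 0.028. With the TEAD motif they were 0 and 0.013, without it 0.0040 and 0.028.

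Other genes of mitochondrial translation and import were compared in the same way. The lists were written from general knowledge with earlier results of these arrays known. Their counts at 1.2-fold stand beside 4.55% of named genes higher and 4.19% lower after TAZ knockdown, and 3.41% and 2.84% after YAP knockdown. For named genes at or above the 75th percentile of level these shares were 7.74% and 6.43%, and 5.30% and 3.99%. At the step of 0.1, 33.3% of the translation factors were higher and 0 lower in both comparisons. On the assembly list 29.6% were higher and 7.41% lower in both. Of the import genes 45.8% and 33.3% were higher after TAZ and YAP knockdown, and 8.33% and 0 lower. Of the cytosolic ribosomal proteins 20% and 15.6% were higher, and 0 and 4.44% lower. Of named genes 13.8% and 11.4% were higher, and 11% and 9.65% lower. Of named genes at or above the 75th percentile 22.4% and 18.1% were higher, and 14.5% and 12.1% lower. The cytosolic ribosomal shares were smaller than these. The lists were not limited to genes that bright. Of the mitoribosomal proteins with other names, DAP3 was identical in all arrays at 7.40, CHCHD1 was 0.085 higher after YAP knockdown and PTCD3 0.12 and 0.058 higher after TAZ and YAP knockdown. Of 12 measured translation factors (17 listed), 2 (16.7%) were at least 1.2-fold higher after TAZ knockdown, 0 after YAP knockdown and 0 lower in either. They were MTRF1L, a release factor, at 0.38 and 0.19, and MTFMT, which formylates the initiator tRNA, at 0.29 and 0.23. TACO1, an activator of cytochrome oxidase translation, was at 0.26 and 0.25, the initiation factor MTIF2 was 0.0030 higher in both, and LRPPRC, which stabilises mitochondrial messenger RNA, was identical in all arrays.

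Of 27 measured genes on the list written for mitoribosome assembly (34 listed), 4 (14.8%, against 4.55% of named genes) were at least 1.2-fold higher after TAZ knockdown. In the same comparison 1 (3.70%, against 4.19%) was lower. After YAP knockdown 3 (11.1%, against 3.41%) were higher and 0 lower (2.84%). Of named genes at or above the 75th percentile of level, 7.74% and 5.30% were at least 1.2-fold higher after TAZ and YAP knockdown. NOA1, a GTPase of small subunit assembly, led at 0.45 and 0.29. Its level was 8.19 in the control, 8.65 in the siTAZ and 8.49 in the siYAP array. TRUB2, a pseudouridine synthase, was at 0.31 and 0.32, METTL17 at 0.30 and 0.33 and MPV17L2 at 0.33 and 0.16. SPG7, a subunit of the protease that matures MRPL32, was at -0.36 and -0.15, while MRPL32 was identical in all arrays. MALSU1, which binds the large subunit during assembly, was at -0.21 in both.

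Among 7 measured genes of mitochondrial transcription and genome maintenance (16 listed), 1 (14.3%, against 4.55% and 3.41% of named genes) was at least 1.2-fold higher in each comparison and 0 lower. It was MTERF2, at 0.41 in both, and TWNK, the replicative helicase, was at 0.24 and 0.22. Among 5 measured regulators of mitochondrial biogenesis (11 listed), ESRRA, a nuclear receptor, was at 0.31 and 0.22. MAX was at 0.11 in both. NRF1 itself was identical in all arrays at 6.92, YY1 was at -0.050 and -0.072 and MYC at -0.0082 and 0.0053.

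The list for mitochondrial protein import in general had 24 measured genes (28 listed) with median differences of 0.077 and 0.060. After TAZ knockdown 18 were higher and 2 lower by any amount, beside 25.1% and 20.1% of named genes, and at 1.2-fold 3 (12.5%) were higher and 1 (4.17%) lower, beside 4.55% and 4.19%. After YAP knockdown 17 were higher and 0 lower by any amount, beside 22.9% and 20.2%, and at 1.2-fold 2 (8.33%) were higher and 0 lower, beside 3.41% and 2.84%. Of named genes at or above the 75th percentile of level, 39.6% were higher by any amount and 24.5% lower after TAZ knockdown. After YAP knockdown these shares were 35.7% and 25.4%. At 1.2-fold 7.74% and 5.30% of these bright named genes were higher after TAZ and YAP knockdown. Whether the import counts by any amount depend on the scaling was not tested. TIMM8A was at 0.41 and 0.15, TIMM50 at 0.31 in both and TOMM40, the outer membrane channel, at 0.27 and 0.28. TOMM34 was at 7.93, 7.30 and 8.10 in the siNC, siTAZ and siYAP arrays, 1.55-fold lower after TAZ knockdown. Cytosolic ribosomal proteins (45 genes) had medians of 0.019 and 0.021, with 2 (4.44%) and 4 (8.89%) genes at least 1.2-fold higher, beside 4.55% and 3.41% of named genes, and 0 lower. RPL36 stood out at 0.58 and 0.73, followed by RPS15A at 0.24 and 0.34 and RPL19 at 0.042 and 0.33.

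**Figure D4:**
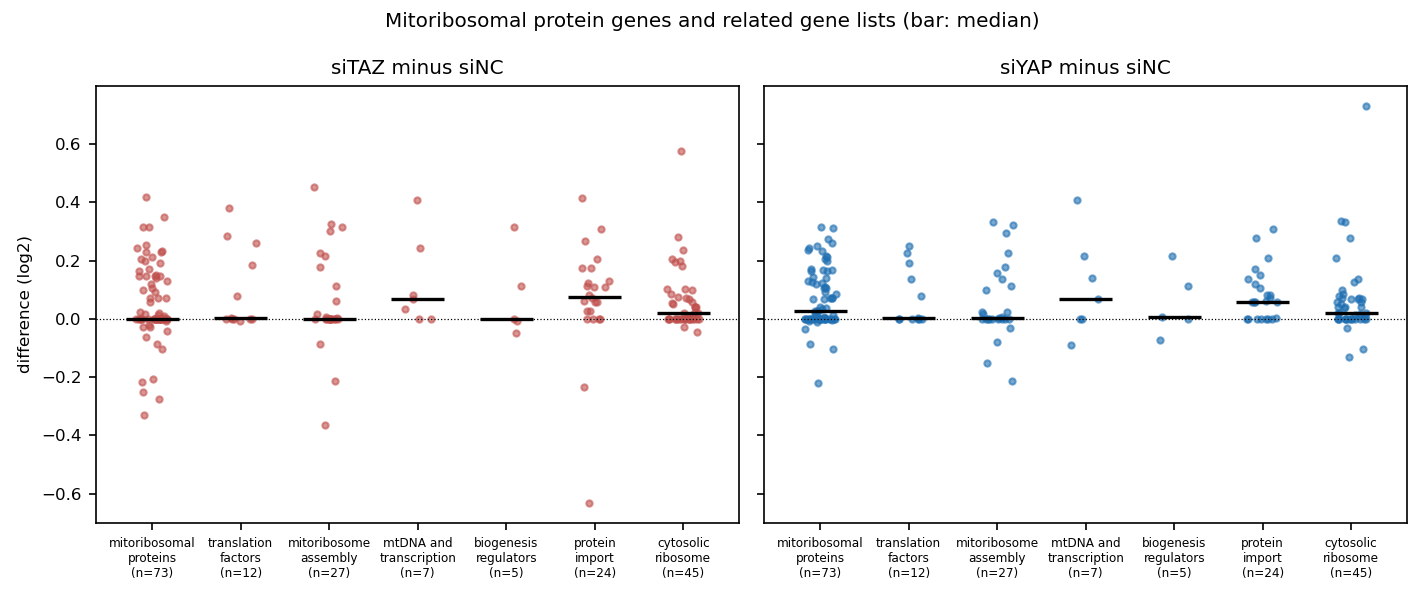
Difference from the control array (log2) for the 73 mitoribosomal genes and for the measured genes of 6 related lists, 1 point per gene with the median as a bar, after TAZ (left) and YAP knockdown (right). Medians lie between 0 and 0.077 in every list, while single genes reach from -0.63 (TOMM34) to 0.73 (RPL36).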

How the data were processed

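Values for 3 arrays were used as deposited. Per the submitters' processing notes the authors summarised the arrays with RMA, which corrects background, quantile-normalizes and applies median polish; no source used here gives its version, the annotation or the build. The deposited values have no named scale and were read as log2 from their range and near-equal quartiles. Quantile normalization makes every value relative to its array. For arrays of 1 sample a group, the number of arrays limits the precision.

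Of 53617 probe sets, 16098 were named by the platform annotation, with symbols updated by Entrez identifier, and the brightest probe set (highest mean over the 3 arrays) stood for each of 14884 genes. Counts were made at 1.2-fold and 1.5-fold, with no filter. The step of 0.1 on the log2 scale was chosen after seeing the data. Values were computed with pandas 2.3.3 and numpy 2.4.6. Counts past a fold threshold were tested on simulated data without identical values. Counts at the step of 0.1 and by any amount were not tested in that way. Alternatives were filters at the median and the 75th percentile of level, centring on the median, averaging a gene's probe sets, subtracting a loess trend (span 0.4), repeating the quantile normalization, and leaving out identical values.

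The genes and lists were chosen with earlier results of these data known. Named in full are the 6 genes at either end of both comparisons with siNC, the 4 at either end between the knockdowns, the 4 brightest and 4 dimmest probe sets, MRPS18A and MRPS18B, any gene past 1.5-fold, the siRNA targets, and up to 3 genes of each list; other genes, and the promoters shown, are examples chosen after their values were seen. Promoters are RefSeq's (GRCh38.p14), and 2057 of 2057 overlapping windows on opposite strands were reverse complements. When a gene had several promoter entries the first was used.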

Additional observations from a re-analysis of the deposited data

How the results depend on the processing

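With 1 array per group no value has an error, and a gap between arrays can come from 1 culture or 1 hybridisation. No paired analysis was possible because each group has 1 array and the labels carry no replicate numbers. The alternatives were a filter at the median and at the 75th percentile of level, median centring, a loess trend, a repeated quantile normalization, averaging the probe sets of each gene, and leaving out identical values. A value was taken as moved past 0.02 on the log2 scale or 1.5 times for counts and percents. With identical values left out the median difference was 0.10 after TAZ knockdown (49 genes) and 0.11 after YAP knockdown (51 genes), against 0.021 and 0.013 over named genes, and between the knockdowns 51.2% were higher and 48.8% lower in siYAP, against 43.98% and 56.02%. With the 75th percentile filter 4.48% were lower by any amount after YAP knockdown (25.4% of named genes) and 1 gene was lower by the step of 0.1 (12.1%). Loess and quantile normalization turn identical values into very small differences, so shares by any amount shift most. With loess 52.1% were lower after TAZ and 43.8% after YAP knockdown, against 44.2% and 45.2% of named genes, and 65.8% were higher in siYAP than in siTAZ, against 51.9%. The share higher after TAZ knockdown, above that of named genes with the deposited scaling, was then below it (47.9% against 55.8%). With the repeated quantile normalization 43.8% were lower after TAZ and 37.0% after YAP knockdown, against 35.5% and 38.9%, and 46.6% were higher and 50.7% lower in siYAP than in siTAZ, against 36.2% and 50.5%. The share higher after TAZ knockdown was then near that of named genes (53.4% against 52.3%). Counts at least 0.1 higher stayed between 23 and 25 after TAZ knockdown and between 23 and 26 after YAP knockdown. Of the 27 named mitoribosomal genes, MRPS18A and MRPS18B changed sign, both with differences near 0. MRPS18A after TAZ knockdown went from 0.018 to -0.00093 with loess and -0.0076 with quantile normalization, and MRPS18B after YAP knockdown from 0.0042 to -0.011 and -0.0066. No other named gene changed sign under the 7 alternatives, and 1 difference fell under 1.2-fold with loess and 1 with quantile normalization. In both it was that of MRPS14 after YAP knockdown, from 0.273 to 0.256. Of the 81 differences of the named genes, 8 moved with quantile normalization and 0 with loess.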

Other observations

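Transcripts whose symbols start like those of mitoribosomal genes but fall outside the selection gave 5 further sets of values. The antisense transcript MRPL20-AS1 was at 5.13 in the control array and 5.37 in both knockdown arrays, a difference of 0.23, while MRPL20 itself was at -0.20 after TAZ knockdown. Whether the array separates the strands there was not tested. MRPL23-AS1 was at 5.35 in the control and 5.21 in both knockdown arrays. The pseudogene MRPL45P2 was at -0.22 and -0.26 after TAZ and YAP knockdown, close to MRPL45 at -0.25 and -0.22. MRPL42P5 was identical and very dim at 1.93, and MRPS31P5 was at 4.35, 4.39 and 4.35.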
